A study of Sus scrofa with 11 samples.

Results

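The expression of 10 genes of adipocytes and fat synthesis was followed here in pig muscle: SCD, FASN, PLIN1, PLIN4, LIPE, PPARG, CIDEC, ME1, G0S2 and RBP4. A gene counted as one of them where its pig Ensembl ID carries that symbol, and all 10 had exactly 1 row among the 25322 genes of the deposited table. The samples were longissimus lumborum, a back muscle, of 11 female pigs aged 23 weeks, with 1 RNA sequencing library per pig. Histology of the same muscle set the groups. In the 7 pigs of fibre1, slow oxidative type I fibres were above 17% and fast glycolytic type IIB fibres below 70%. In the 4 pigs of fibre2B, type I fibres were below 8% and type IIB fibres above 70%. Breed, diet, carcass fat and intramuscular fat are not given in the labels, so none of these could be set beside the values.

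Fat cells lie between the fibres of skeletal muscle as marbling, and fibres hold small lipid droplets of their own. Fatty acids are made by fatty acid synthase from malonyl-CoA and NADPH, desaturated by SCD, esterified to triglyceride and stored in droplets coated by perilipins. Hormone-sensitive lipase (LIPE) and adipose triglyceride lipase release them again, and PPARG is the nuclear receptor that drives the formation of fat cells. In the pig, fatty acids are made mainly in adipose tissue rather than in liver.

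Total counts ran from 14832736 to 36374829 per pig. Fibre1 pigs 5 and 6 had 45.2% and 43.9% of their counts on the 10 most abundant genes, against 32.8% to 38.1% in the other 9 pigs. Across all genes, edgeR's quasi-likelihood test called 1021 of 11329 tested genes at an adjusted p of 0.05, which is 9.01%. Of the tested genes 4.38% were called higher in fibre1 and 4.63% higher in fibre2B, and the groups did not overlap in 7.55%. With fibre2B pig 14 left out 0 genes were called (2436 at an unadjusted p under 0.05). Fibre1 pig 7 and fibre2B pigs 11 and 14 stood apart from the other 8 pigs by counts on genes of liver secreted proteins, given with RBP4 below.

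All 10 genes passed the filter on low counts, and 1 of them, RBP4, was called, with higher values in fibre2B. None of the other 9 passed, and in 0 of the 10 did the groups fail to overlap. Over all tested genes 9.01% were called and the groups did not overlap in 7.55%, so 1 call among 10 genes is near the overall share. Of these 10 genes 5 had positive and 5 negative log2 fold changes (fibre1 minus fibre2B), with a median of 0.054, beside a median of 0.0073 over all tested genes. In whole muscle, fewer cells of a type and less RNA per cell cannot be told apart.

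**Figure D1:**
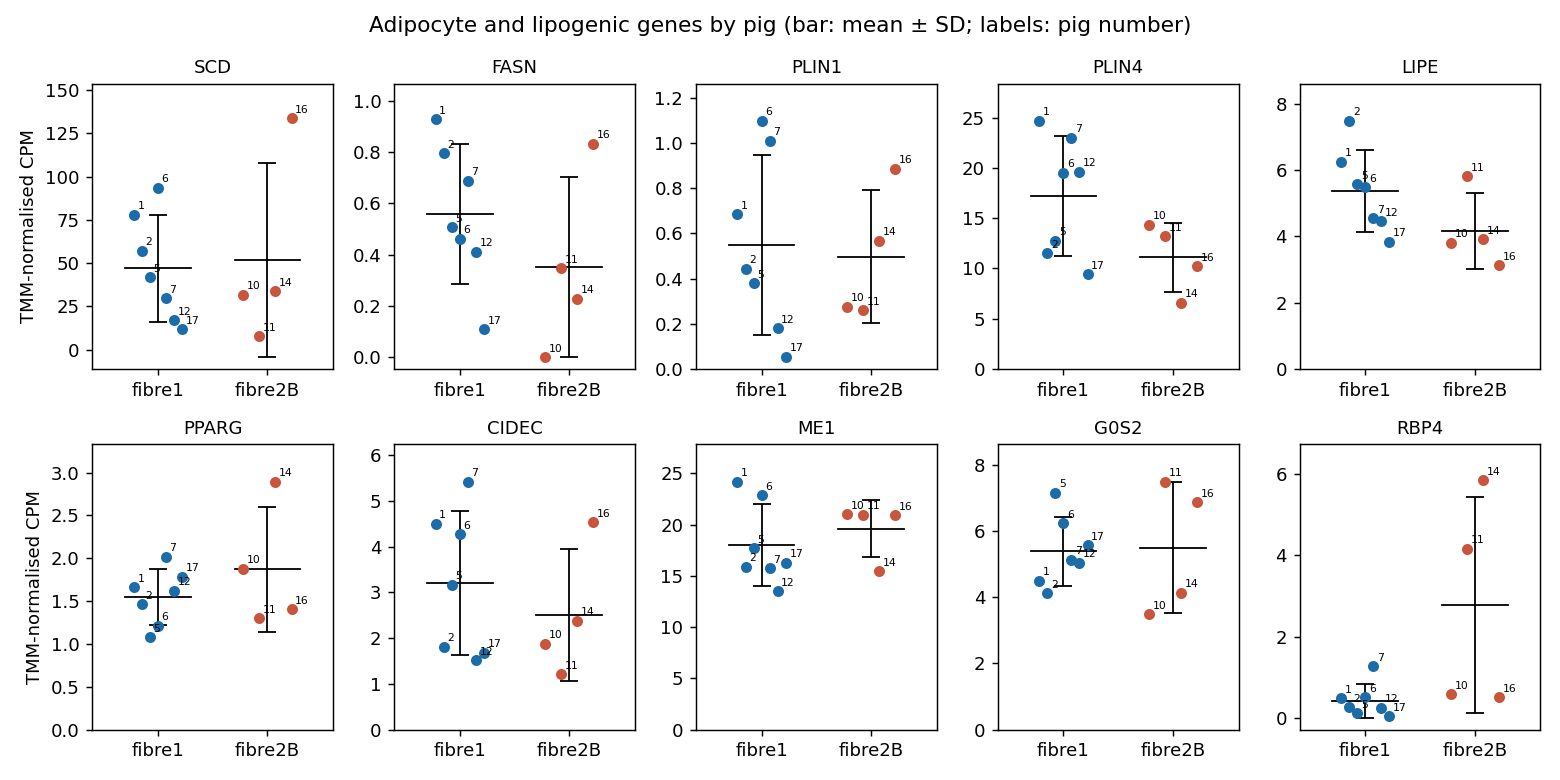
TMM-normalised CPM of each gene in each pig, fibre1 (blue, n = 7) and fibre2B (red, n = 4), with the group mean and SD and the pig number beside each point. RBP4 is the only gene called, its 2 highest pigs being fibre2B pigs 14 and 11, and the groups overlap in every panel.

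SCD, FASN, PLIN1 and CIDEC differed far more between pigs than between groups. SCD (ENSSSCG00000010554), the desaturase that turns stearate into oleate, ran from 11.8 to 93.7 CPM in fibre1 (CPM, a pig's count scaled to its TMM-normalised library size), with a median of 41.8 CPM. In fibre2B it had 31.7 CPM in pig 10, 7.67 in pig 11, 33.8 in pig 14 and 134 in pig 16. The highest and the lowest pig of all 11 were thus both fibre2B animals, 17.4-fold apart. Its log2 fold change was -0.14 ± 0.64 (SE; edgeR adjusted p = 0.908), with a 95% interval from -1.52 to 1.24, and without fibre2B pig 16 it was 0.95 (adjusted p = 0.362). Within groups the SD of its log2(CPM + 0.5) was 1.31, above that of 99.4% of tested genes, whose median was 0.31.

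PLIN1 (ENSSSCG00000001844) encodes the perilipin that coats the large droplet of fat cells. It had 1 to 22 counts per pig, so counting error is wide. In fibre1 it ran from 0.0541 CPM in pig 17 (exact Poisson 95% interval 0.00137 to 0.301, counting error only) to 1.10 CPM in pig 6 (0.661 to 1.71), with a median of 0.443. The 4 fibre2B pigs had 0.275 CPM (pig 10), 0.260 (pig 11), 0.568 (pig 14) and 0.886 (pig 16), all inside the range of fibre1. The log2 fold change was 0.14 ± 0.61 (edgeR adjusted p = 0.899), with a 95% interval from -1.17 to 1.46.

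CIDEC (ENSSSCG00000011557), a protein that lets lipid droplets fuse in fat cells, ran from 1.52 to 5.42 CPM in fibre1, with a median of 3.17. In fibre2B it had 1.88 CPM in pig 10, 1.21 in pig 11, 2.38 in pig 14 and 4.53 in pig 16. Its log2 fold change was 0.35 ± 0.42 (edgeR adjusted p = 0.606). FASN (ENSSSCG00000029944), fatty acid synthase itself, had at most 19 counts in any pig. It ran from 0.108 to 0.929 CPM in fibre1, with a median of 0.507, and in fibre2B it had 0 in pig 10, 0.347 in pig 11, 0.227 in pig 14 and 0.834 in pig 16. A count of 0 in pig 10 allows up to 0.137 CPM by 3 counts, and the exact Poisson 95% interval reaches 0.169 CPM. Its log2 fold change was 0.67 ± 0.66 (edgeR adjusted p = 0.527), and it moved to 1.52 without fibre2B pig 16 (adjusted p = 0.225).

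The same pigs were high for several of these genes. Fibre2B pig 16 and fibre1 pigs 6 and 1 were the 3 highest for SCD and were among the 4 highest for PLIN1 and for CIDEC. Fibre1 pigs 12 and 17 and fibre2B pig 11 were the 3 lowest for each of these 3 genes. PLIN1 and CIDEC had a Pearson r of 0.87 over the 11 pigs on log2(CPM + 0.5), with a permutation p of 0.00081 and 0.0364 adjusted over 45 pairs (Spearman rho 0.86, permutation p = 0.00103, adjusted p = 0.0463). It was 0.90 without the 2 pigs farthest from the median of PLIN1 and 0.89 on values centred on each group's mean. In the 7 fibre1 pigs alone it was 0.88 (exact permutation p = 0.0149); the 4 fibre2B pigs are too few for a value. Leaving out single pigs gave 0.84 to 0.89, with adjusted p from 0.0417 to 0.117, and the adjusted p passed only without fibre1 pig 7.

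Of the 45 pairs 1 passed, 5 had an unadjusted permutation p under 0.05, and 28 were positive, with a median r of 0.13. SCD had an r of 0.75 with PLIN1 (permutation p = 0.00782, adjusted p = 0.156, rho 0.74 with permutation p = 0.0131 and adjusted p = 0.295) and of 0.74 with CIDEC (permutation p = 0.0104, adjusted p = 0.156, rho 0.67 with permutation p = 0.0283 and adjusted p = 0.302). Without the 2 pigs farthest from the median of SCD these were 0.75 and 0.59. Fibre1 pig 7 was high for PLIN1 and CIDEC but not for SCD, and without it both SCD pairs passed, at 0.87 with PLIN1 and 0.89 with CIDEC (permutation, adjusted p = 0.0301 for each). Since that pig departs from both relations, a higher r without it follows from the choice of pig and adds no support. Neither SCD pair passed when any other single pig was left out. FASN and PLIN1 had an r of 0.61 (permutation p = 0.0476, adjusted p = 0.427, rho 0.60 with permutation p = 0.057 and adjusted p = 0.366), which was 0.40 without the 2 pigs farthest from the median of FASN. The remaining pair was negative, PPARG with G0S2, at -0.67 (permutation p = 0.0206, adjusted p = 0.232, rho -0.68 with permutation p = 0.0252 and adjusted p = 0.302, and -0.61 without the 2 pigs farthest from the median of PPARG).

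**Figure D2:**
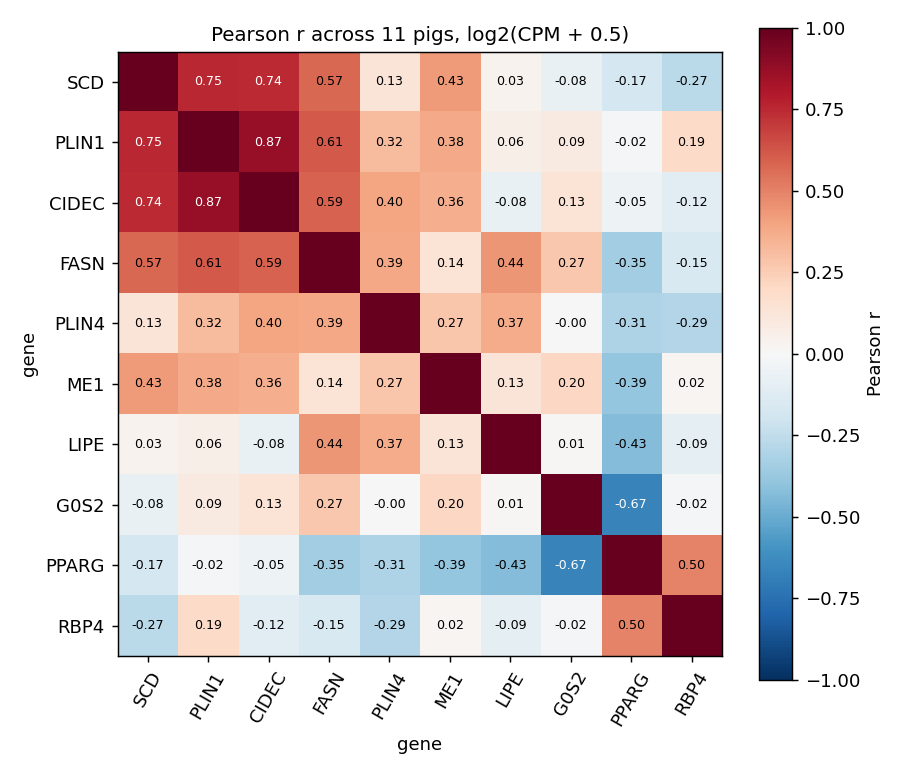
Pearson r over 11 pigs between each pair of the 10 genes on log2(CPM + 0.5), with the value in each cell and the colour scale from -1 (blue) to 1 (red). The order of the genes was set by hand, not by clustering. SCD, PLIN1, CIDEC and FASN, placed together, form the red block at the upper left, while only PLIN1 with CIDEC (0.87) passed after adjustment over 45 pairs.

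**Figure D3:**
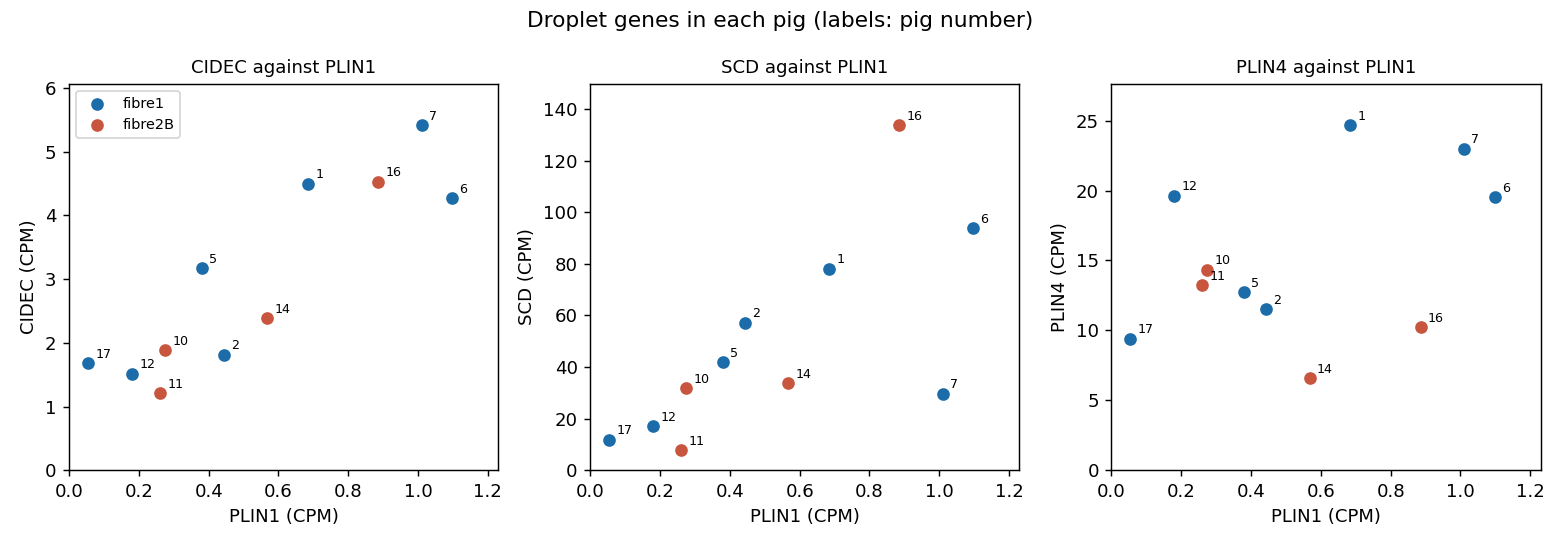
CIDEC, SCD and PLIN4 plotted against PLIN1 in each pig, all in CPM on linear axes, with the pig number beside each point (blue fibre1, red fibre2B). Pigs 11, 12 and 17 lie at the lower left for CIDEC and SCD, and pig 7 lies apart for SCD at 29.6 CPM.

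LIPE, G0S2 and PPARG act on the release of fat and on fat cell identity. LIPE (ENSSSCG00000003018), hormone-sensitive lipase, ran from 3.84 to 7.49 CPM in fibre1, with a median of 5.49. In fibre2B it had 3.81 CPM in pig 10, 5.81 in pig 11, 3.92 in pig 14 and 3.13 in pig 16, so that 3 of these 4 pigs were at or below 3.92 CPM and the groups overlapped. The log2 fold change was 0.36 ± 0.22 (edgeR adjusted p = 0.282), with a 95% interval from -0.10 to 0.83, and 0.58 without fibre2B pig 11 (adjusted p = 0.115). G0S2 (ENSSSCG00000015617), the inhibitor of adipose triglyceride lipase, ran from 4.12 to 7.16 CPM in fibre1, with a median of 5.14, and had 3.49, 7.50, 4.14 and 6.88 CPM in fibre2B pigs 10, 11, 14 and 16. The 2 groups covered nearly the same range, and the log2 fold change was -0.033 ± 0.23 (edgeR adjusted p = 0.940), with a 95% interval from -0.52 to 0.45. PPARG (ENSSSCG00000011579) ran from 1.08 to 2.02 CPM in fibre1, with a median of 1.62, and had 1.88, 1.30, 2.89 and 1.41 CPM in fibre2B pigs 10, 11, 14 and 16. Pig 14 alone exceeded the fibre1 range. For PPARG the log2 fold change was -0.26 ± 0.27 (edgeR adjusted p = 0.549) and was 0.031 without that pig (adjusted p = 0.956).

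PPARG had negative r with 8 of the other 9 genes, with a median of -0.31, and none of its pairs passed. Its highest r was 0.50 with RBP4 (permutation p = 0.123, adjusted p = 0.692, rho 0.36). That r was -0.23 without fibre1 pig 5 and fibre2B pig 14, the 2 pigs farthest from the median of PPARG, so it rests on them. LIPE and G0S2 had median r of 0.033 and 0.0098 with the other genes. For PLIN1 and CIDEC these medians were 0.32 and 0.36. No test of the difference between these medians was made.

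PLIN4 and ME1 are also known from tissues other than fat. PLIN4 (ENSSSCG00000013512), a perilipin of small droplets that is found in muscle fibres too, had the smallest p among the 9 genes that were not called. It ran from 9.41 to 24.7 CPM in fibre1, with a median of 19.5, and had 14.4 CPM in fibre2B pig 10, 13.2 in pig 11, 6.58 in pig 14 and 10.21 in pig 16. Fibre1 pigs 1, 6, 7 and 12 were above every fibre2B pig, while pigs 2, 5 and 17 lay within the range of fibre2B. The log2 fold change was 0.63 ± 0.29 (edgeR unadjusted p = 0.0438, adjusted p = 0.162), with a 95% interval from 0.020 to 1.25, and it stayed between 0.46 and 0.78 without any single pig (adjusted p from 0.0863 to 0.377). Its r with PLIN1 was 0.32 and with CIDEC 0.40 (permutation, adjusted p 0.799 for PLIN1 and 0.712 for CIDEC).

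ME1 (ENSSSCG00000004454), cytosolic malic enzyme and a source of NADPH for fatty acid synthesis, was the steadiest of the 10 genes. It ran from 13.5 to 24.2 CPM in fibre1, with a median of 16.3, and had 21.0 CPM in fibre2B pigs 10 and 11, 15.4 in pig 14 and 20.9 in pig 16. The SD of its log2(CPM + 0.5) within groups was 0.27, above that of 37.0% of tested genes. The log2 fold change was -0.12 ± 0.17 (edgeR adjusted p = 0.673), with a 95% interval from -0.49 to 0.25.

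PLIN4, ME1 and RBP4 were compared with the summed CPM of markers of slow fibres, fast fibres, fibroblasts, endothelium, smooth muscle and pericytes, macrophages and leukocytes, and blood. Of these 21 relations 0 passed after adjustment and 5 had an unadjusted permutation p under 0.05. ME1 was lower where the smooth muscle and pericyte sum was higher, with an r of -0.77 (permutation p = 0.00516, adjusted p = 0.108, rho -0.75 with permutation p = 0.0115 and adjusted p = 0.187). That r was -0.65 without the 2 pigs farthest from the median of the sum and -0.76 on group-centred values (exact permutation, adjusted p = 0.216). In the 7 fibre1 pigs it was -0.97 (exact permutation p = 0.00198, adjusted p = 0.0417). Among the fits that left out a single pig, this relation passed only without fibre2B pig 14 (r = -0.87, permutation, adjusted p = 0.00567). PLIN4 had an r of 0.65 with the slow-fibre sum (permutation p = 0.0276, adjusted p = 0.116, rho 0.43 with permutation p = 0.193 and adjusted p = 0.579). Without fibre1 pig 1 and fibre2B pig 14, the 2 pigs farthest from the median of that sum, it was -0.0023, so the relation rests on those pigs. The slow-fibre sum itself spanned 7465 to 26006 CPM among fibre1 pigs and 2465 to 9106 CPM among fibre2B pigs, and all 7 of its tested markers had positive log2 fold changes (median 0.83), of which 0 were called. The fast-fibre markers went the same way, with all 6 tested positive (median 0.42) and 0 called. Their sum had a median of 70713 CPM in fibre1 and 56082 CPM in fibre2B, so higher values in fibre1 were not particular to the slow list.

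RBP4 (ENSSSCG00000010479) encodes the plasma carrier of retinol, which is made mostly by liver and also by fat cells. It had 1 to 28 counts in fibre1 and 10 to 103 in fibre2B. In fibre1 it ran from 0.0541 CPM in pig 17 to 1.29 CPM in pig 7, with a median of 0.266 and the second highest pig at 0.520. In fibre2B it had 0.596 CPM in pig 10, 4.16 in pig 11, 5.85 in pig 14 and 0.521 in pig 16. Pigs 11 and 14 were far above all others, while pigs 10 and 16 were close to the highest fibre1 pigs below pig 7. The means were 0.428 ± 0.415 (SD, n = 7) and 2.78 ± 2.66 CPM (n = 4). The log2 fold change was -2.67 ± 0.71 (edgeR adjusted p = 0.0384), with a 95% interval from -4.20 to -1.14.

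Genes of liver secreted proteins were high in the same pigs. ALB, serum albumin, had 19.6 CPM in fibre1 pig 7, 93.3 in fibre2B pig 11 and 168 in pig 14, against 0.0578 to 1.605 CPM in the other 8 pigs. TF (transferrin) had 4.87, 22.02 and 26.9 CPM in those 3 pigs and at most 0.459 in the others. APOC3, an apolipoprotein, had 4.18, 24.1 and 26.8 CPM and at most 0.321 in the others. FGB (fibrinogen beta chain), AHSG (fetuin A) and APOA2 were also highest in these 3 pigs. So was TTR, transthyretin, which carries RBP4 in plasma, with 1.33, 8.93 and 8.51 CPM against at most 0.138. APOA1 did not set them apart, with 22.3, 13.1 and 13.3 CPM against 4.30 to 13.9 in the others.

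Of 8 listed liver genes 7 had a row, 0 were at 0 in every pig, 2 passed the filter and 0 were called, ALB having an edgeR adjusted p of 0.0708. The list's summed level lay between 4.65 and 55.1 CPM among fibre1 pigs and between 11.6 and 270 CPM among fibre2B pigs. RBP4 stood at 6.57%, 4.46% and 3.48% of ALB in fibre1 pig 7 and fibre2B pigs 11 and 14, and TF at 24.9%, 23.6% and 16.01%. These shares are not corrected for the RBP4 level of the other 8 pigs (median 0.377 CPM), which weighs most in pig 7 (1.29 CPM). Among the other 8 pigs RBP4 ran from 0.0541 to 0.596 CPM, and its r with the liver sum was -0.15 (exact permutation p = 0.713, rho -0.048, exact permutation p = 0.935, and 0.10 without the 2 pigs farthest from the median of the sum). In these 8 pigs that sum is mostly APOA1, with a median of 8.74 CPM against 0.262 CPM for ALB, so this r is in effect one with APOA1. No value over all 11 pigs is given, because 3 pigs lie far above the other 8. Among those 8, fibre2B pig 10 was the highest for RBP4 (0.596 CPM). It was also the highest of them for ALB (1.605 CPM), TF (0.459), APOC3 (0.321) and TTR (0.138), so traces of liver genes are not confined to the 3.

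With fibre1 pig 7 and fibre2B pigs 11 and 14 left out, a choice made after seeing the data, the log2 fold change of RBP4 was -0.95 (edgeR adjusted p = 0.444, 6 against 2 pigs) and 4 genes were called in all. Without pig 14 alone the log2 fold change of RBP4 was -2.01 (adjusted p = 0.152) and without pig 11 -2.398 (0.0756). The call was also lost without fibre1 pig 1, 2, 5 or 6 (adjusted p from 0.0614 to 0.0709). DESeq2 gave an adjusted p of 0.00362 and limma-voom 0.0864. Whether the liver genes' presence sets the RBP4 difference was not tested.

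RBP4 had 3 relations with an unadjusted permutation p under 0.05 among those with other cell types' sums, none of which passed. Its r was -0.72 with the slow-fibre sum (permutation p = 0.0115, adjusted p = 0.116, rho -0.61 with permutation p = 0.0517 and adjusted p = 0.271), -0.85 without the 2 pigs farthest from that sum's median and 0.041 within fibre1 (exact permutation p = 0.937). Of the fits without a single pig, it passed only in the one without fibre1 pig 1 (r = -0.91, permutation, adjusted p = 0.0407). With the fibroblast sum r was 0.67 (permutation p = 0.0203, adjusted p = 0.116, rho 0.71 with permutation p = 0.0178 and adjusted p = 0.187, and 0.66 without the 2 farthest pigs). With the blood sum it was 0.66 (permutation p = 0.0274, adjusted p = 0.116, rho 0.66 with permutation p = 0.0321 and adjusted p = 0.224, and 0.57 without the 2 farthest pigs). All 3 include the pigs with liver genes, and on group-centred values they were -0.55, 0.41 and 0.35.

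**Figure D4:**
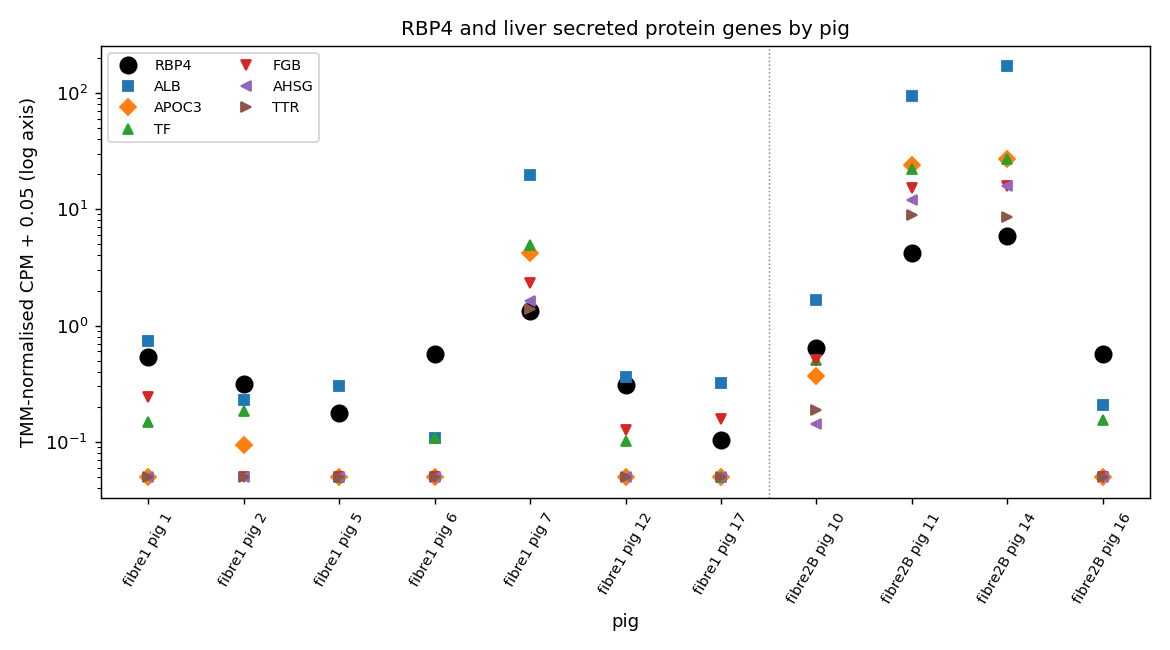
RBP4 (large black circles) and 6 genes of plasma proteins made in liver in each pig, as CPM + 0.05 on a log axis, with fibre1 left and fibre2B right of the dotted line. All 7 genes are highest in fibre1 pig 7 and fibre2B pigs 11 and 14.

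**Figure D5:**
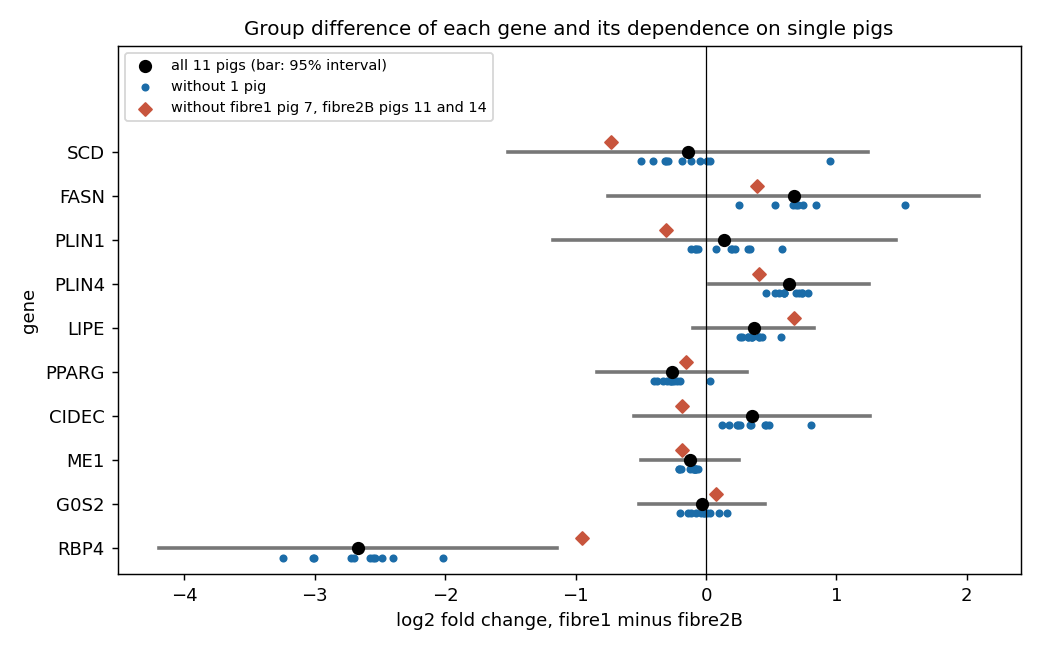
Log2 fold change (fibre1 minus fibre2B) of the 10 genes over all 11 pigs (black, bar: 95% interval), without each single pig (blue, fits where the gene passed the filter) and without fibre1 pig 7 and fibre2B pigs 11 and 14 (red). The intervals are not adjusted for the number of genes. That of RBP4 lies wholly below 0 and that of PLIN4, which was not called (edgeR adjusted p = 0.162), wholly above 0. Without those 3 pigs the value of RBP4 is -0.95 (edgeR adjusted p = 0.444).

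Other markers of fat cells gave little to set beside these genes. Of 14 listed, 8 had a row matched by symbol and 2 passed the filter. ADRB3 and TRARG1 had 0 counts in every pig, where 3 counts would be 0.0771 to 0.190 CPM, and LGALS12, a galectin of fat cells, had at most 0.454 CPM. The symbols ADIPOQ, LEP, FABP4, CIDEA, AQP7 and THRSP were matched to no ID and are not analysed here. CFD, complement factor D or adipsin, held 94.5% to 98.8% of the list's summed CPM, so the sum is in effect that of CFD. CFD was called higher in fibre2B, at 212 ± 48.4 CPM there (SD, n = 4) against 133 ± 23.8 CPM (n = 7). Its log2 fold change was -0.68 ± 0.17 (edgeR adjusted p = 0.0326). It lost its call in 7 of 11 fits that left out a single pig (1, 2, 5 or 6 of fibre1, or 11, 14 or 16 of fibre2B), with adjusted p up to 0.126. The call was also lost with library size only (adjusted p = 0.0614), without fibre1 pigs 5 and 6 together (0.101) and with the 3 pigs with liver genes left out (log2 fold change -0.47, adjusted p = 0.274). The 2 highest pigs for CFD were fibre2B pigs 14 (272 CPM) and 11 (217 CPM), both of which carry liver genes. Fibre2B pig 16, which does not, was close to pig 11 at 205 CPM. In fibre1, pig 7 with liver genes had 151 CPM, below pig 17 without them at 175 CPM. Whether the liver genes bear on the CFD difference was not tested.

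The summed fibroblast markers also ran higher in fibre2B, from 750 to 1448 CPM against 475 to 987, and 2 of the 6 tested were called higher there. The blood markers moved the same way, with sums of 423 to 957 CPM against 137 to 468, negative values in all 3 tested genes (median -1.14) and 1 called higher in fibre2B. Over all tested genes 4.63% were called higher in fibre2B. Fibre2B pig 14, without which 0 genes were called, had the highest sum of both lists. The part of either list in the CFD or RBP4 difference was not tested. The listed fat cell markers' median log2 fold change was -0.34 over 2 tested genes, CFD and KLB. KLB hardly differed, at 2.70 CPM in fibre1 and 2.71 in fibre2B (log2 fold change -0.0087, edgeR adjusted p = 0.988). That median thus reflects CFD alone. Of the 10 lipid genes 0 passed against the sum of these markers, and 2 had an unadjusted permutation p under 0.05. RBP4 had an r of 0.76 (permutation p = 0.00706, adjusted p = 0.0701, rho 0.65 with permutation p = 0.0338 and adjusted p = 0.219), which was 0.18 without fibre2B pigs 11 and 14 and so rests on them. PLIN4 had an r of -0.71 (permutation p = 0.014, adjusted p = 0.0701, rho -0.63 with permutation p = 0.0438 and adjusted p = 0.219, and -0.58 without the same 2 pigs). PLIN1 had 0.011 (permutation p = 0.974, adjusted p = 0.974, rho -0.018 with permutation p = 0.967 and adjusted p = 0.967).

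Enzymes next to FASN and SCD in fatty acid synthesis did not pass. Of 15 listed genes 11 had a row, 9 were tested and 0 were called, with a median log2 fold change of 0.11. The smallest p was that of HSD17B12, a reductase of fatty acid elongation, with 43.6 ± 8.79 against 65.6 ± 13.1 CPM (log2 fold change -0.59 ± 0.17, edgeR adjusted p = 0.05003). SLC25A1, the mitochondrial citrate carrier, had 0.39 ± 0.21 (edgeR adjusted p = 0.230).

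Genes of triglyceride synthesis and breakdown numbered 9 tested of 13 listed, of which 8 had positive values and 0 were called (median 0.34). MGLL, monoglyceride lipase, had 64.7 ± 9.31 against 45.7 ± 7.17 CPM (0.50 ± 0.15, edgeR adjusted p = 0.05003), DGAT1, which adds the last fatty acid to triglyceride, 0.30 ± 0.23 (0.405), and GPD1, which supplies glycerol 3-phosphate, 0.27 ± 0.20 (0.408). Of 10 listed perilipins and droplet proteins 4 were tested and 0 called (median 0.26). Caveolin 1 (CAV1) had -0.71 ± 0.32 (edgeR adjusted p = 0.161), the seipin gene BSCL2 0.31 ± 0.18 (0.274), and PLIN5, the perilipin of oxidative tissues, 1.21 ± 0.79 (0.329).

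The regulators were 14 listed, 8 tested and 1 called, in a list with 6 positive values and a median of 0.41. Over all tested genes 9.01% were called, and in 7.55% the groups did not overlap. The called gene was SREBF2, the transcription factor of cholesterol synthesis, with 4.03 ± 1.01 CPM in fibre1 and 2.16 ± 0.271 in fibre2B and no overlap between the groups. Its log2 fold change was 0.90 ± 0.22 (edgeR adjusted p = 0.0293). Its call was lost when pig 1 or 2 of fibre1, or any single pig of fibre2B, was left out (adjusted p from 0.0519 to 0.0728). It was lost too with library size only (log2 fold change 0.70, adjusted p = 0.142), without fibre1 pigs 5 and 6 together (0.0589) and with the 3 pigs with liver genes left out (0.159). In the retinoid list, 10 listed and 5 tested, 0 were called (median 0.063). ALDH1A1, which makes retinoic acid, did not overlap between groups (-1.04 ± 0.34, edgeR adjusted p = 0.0687) and CRABP2, a carrier of retinoic acid in the cell, had 1.08 ± 0.56 (0.222).

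Each gene was also compared with 7766 tested genes that carry a symbol, by Pearson r of log2(CPM + 0.5) over the 11 pigs. These are the top of a long ranking and are given as a description. CATSPERG was the most alike both to PLIN1 (0.95) and to CIDEC (0.94), and PLIN1 was followed by PPP1R1B (0.91), PAQR6 (0.89), CIDEC (0.87) and WDR90 (0.84). EN1 (0.89) and PLIN1 (0.87) came next for CIDEC. SCD was most like AUH (0.86), SEC24D (0.83) and PHACTR3 (0.82), and FASN most like ACBD3 (0.88), TMEM231 (0.85) and MARS1 (0.84).

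For PLIN4 the ranking began with DCTN4 (0.97), BAP1 (0.94) and NFS1 (0.93), and for LIPE with POLA2 (0.95), TARBP2 (0.92) and CORO6 (0.91). PPARG was most like GGT5 (0.94), CCL5 (0.92) and CDHR4 (0.91). ME1 was led by AP3M2 (0.87), TENT5C (0.85) and GOLGA4 (0.83), and for G0S2 SMOX (0.83) and CHID1 (0.83) ranked high. For RBP4 the first was ALB, followed by TIMELESS and CFAP90; no r is given for these, since RBP4 and ALB are both highest in the 3 pigs with liver genes.

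In the RefSeq annotation of Sscrofa11.1, a different build from the Sscrofa10.2 of the deposited counts, PLIN4 overlaps HDGFL2, LIPE overlaps ATP5SL and RBP4 overlaps PDE6C, while PLIN1 and CIDEC each overlap an uncharacterised locus. The strand setting of the counting is not given in the sources used here, so reads of such neighbours cannot be told apart.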

How the data were processed

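Muscle RNA of 11 pigs was sequenced from TruSeq libraries made from 300 ng of total RNA, in 50 single-end cycles and 5 technical repetitions, per the labels' protocols and the design text. The deposited gene table holds expected counts (estimated reads per gene, stored as whole numbers and not normalized); per the submitters' processing notes, STAR and RSEM were among the tools and Sscrofa10.2 was the build, with no roles stated. Columns were joined to pigs by the number in the title, with 0 columns of other samples, and each pig is its own sample. The isoform table was not used.

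Counts were fitted for all genes with edgeR 4.0.16 in R 4.3.3 (TMM factors, filterByExpr, quasi-likelihood F test, group term, Benjamini-Hochberg). The SE was taken as |log2 fold change| over the root of F, and intervals use the test's degrees of freedom. Correlations use log2(CPM + 0.5) and 100000 permutations (all permutations under 10 pigs or within groups). A table pairing gene IDs with symbols named 11804 rows. Genes named beyond the 10 were, per list, those called or else the 3 with the smallest p, and those most alike (5 for PLIN1, 3 for others). PCK1, KLB and the liver genes other than ALB and APOA1 were named after their values were seen. Of the genes this rule names, 3 are not reported here. In simulated data of 11137 genes, 33.3% of 2-fold and 88% of 4-fold changes were recovered, with 4% false calls. The 10 genes, lists and tests were chosen with earlier results of these data known. Alternatives were other scaling, filters, DESeq2 1.42.0, limma-voom (limma 3.58.1), a robust fit, other pseudocounts and pigs left out.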

Additional observations from a re-analysis of the deposited data

Results flagged for a closer look

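Among 24 genes named in the report, each checked in both groups, 5 of 48 groups held a pig far from the others by Dixon's test at the 95% level; chance alone gives about 1 in 20. RBP4 had 1.29 CPM in fibre1 pig 7, with the next fibre1 pig at 0.520, and ALB had 19.6 CPM in the same pig, with the next at 0.684. SLC25A1 also stood out in that pig, at 25.5 CPM with the next at 19.5. ME1 had 15.4 CPM in fibre2B pig 14, below the other 3 pigs of its group, the nearest of which had 20.9. PLIN5 had 23.2 CPM in fibre1 pig 1, with the next fibre1 pig at 5.69.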

How the results depend on the processing

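No paired analysis was possible because no replicate number occurs in both groups. The count of called genes (1021) was 157 with library size only, which moved the median log2 fold change of all genes to -0.19, 1740 with DESeq2, 28 without fibre1 pigs 5 and 6 together and 4 with fibre1 pig 7 and fibre2B pigs 11 and 14 left out together; without single pigs it ran from 0 to 1548. RBP4 lost its call with library size only (log2 fold change -2.86, adjusted p = 0.0631) and without fibre1 pigs 5 and 6 together (-2.55, 0.109); with at least 1 CPM required in at least 4 pigs RBP4, FASN and PLIN1 were not tested. PLIN1 changed sign with library size only (-0.057), limma-voom (-0.16), without fibre1 pigs 5 and 6 together (-0.066) and with the 3 pigs with liver genes left out (-0.31). SCD did with limma-voom (0.22), G0S2 with limma-voom (0.00034) and with those 3 pigs left out (0.074), and CIDEC with those 3 left out (-0.19). Without single pigs SCD ran from -0.50 to 0.95, PLIN1 from -0.12 to 0.58, PPARG from -0.40 to 0.031 and G0S2 from -0.20 to 0.16. LIPE, PLIN4 and ME1 kept their sign and stayed uncalled in all 21 refits each, as did FASN where it passed the filter and had an adjusted p (DESeq2 gave none). The cause of these changes was not tested.

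Passing pairs of the 10 genes numbered 0 in fibre1 pigs alone and 0 without fibre1 pigs 5 and 6 together, and 0 to 3 without single pigs. With the 3 pigs with liver genes left out the count stayed at 1, but PLIN1 with CIDEC no longer passed (r 0.88, adjusted p = 0.129 by permutation) and SCD with PLIN1 did (0.96, 0.0145). Genes passing against the fat cell marker sum numbered 2 with RLE factors, 2 with library size only and 1 with a pseudocount of 2, and 0 to 2 without single pigs. Relations with other cell types' sums numbered 1 in fibre1 pigs alone and 1 with the 3 pigs with liver genes left out, and 0 to 1 without single pigs. PLIN1, FASN and RBP4 rest on few counts, so a 2-fold difference in them could be missed.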

Other observations

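PCK1, the enzyme that commits carbon to glucose in liver and to glyceride glycerol in fat cells, had 10.01 CPM in fibre2B pig 11 and 3.24 CPM in fibre2B pig 14, against 0.184 CPM in fibre1 pig 7 and at most 0.147 CPM in the other 8 pigs. It stood at 10.7% of ALB in fibre2B pig 11, 1.93% in pig 14 and 0.939% in fibre1 pig 7, a wider range than that of TF (16.01% to 24.9%). APOA1 varied more still, at 114%, 14.03% and 7.91% of ALB in fibre1 pig 7 and fibre2B pigs 11 and 14. However, APOA1 had 4.30 to 13.9 CPM in the other 8 pigs as well, and PCK1 in fibre1 pig 7 was near the level of those pigs. The shares of these 2 genes are therefore not comparable with those of TF. PPARG, the fat cell receptor, had its highest value in fibre2B pig 14 (2.89 CPM) and its second highest in fibre1 pig 7 (2.02 CPM), but 1.30 CPM in fibre2B pig 11.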
